A study of Mus musculus with 15 samples.

Results

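The 10 genes described here encode the accessory subunits of Polycomb repressive complex 2 (Jarid2, Aebp2, Mtf2, Phf1 and Phf19) and enzymes that take Polycomb marks off histones (Bap1 with its partner Asxl1, Usp16, Mysm1 and Kdm6b). They were found by gene symbol in the table of expression, where they account for 13 of 65522 transcription units. A transcription unit is a stretch of assembled transcripts that the authors' software treated as 1 gene. Phf19, Bap1 and Kdm6b have 2 units each, at identical coordinates, so that reads of the gene may be divided between the units. The unit with the higher mean is called the main unit below and the other the second unit.

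Polycomb repressive complex 2 (PRC2) methylates histone H3 on lysine 27 through the catalytic subunits EZH1 or EZH2, and complex 1 (PRC1) ubiquitinates histone H2A. The accessory subunits decide where PRC2 binds and how active it is, and they sort it into separate forms. JARID2 and AEBP2 belong to the form that can bind ubiquitinated H2A, whereas the Polycomb-like proteins MTF2, PHF1 and PHF19 take each other's place in a form that is drawn to CpG islands. BAP1 with ASXL1, USP16 and MYSM1 remove ubiquitin from H2A, and KDM6B removes methyl groups from lysine 27 of H3. In female cells both marks cover the inactive X chromosome, which is where CIZ1, a nuclear matrix protein, accumulates.

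Poly(A) RNA was sequenced from 15 samples of embryonic fibroblasts of female C57BL/6 mice, some of which share an embryo. The groups were 3 WT primary, 2 CIZ1 null primary, 3 WT adapted and 3 CIZ1 null adapted populations, together with 4 primary CIZ1 null samples that carry a doxycycline-inducible GFP-CIZ1 transgene, 2 untreated and 2 collected after doxycycline at 5 to 10 µg per ml. Primary cells were taken before passage 5 from single embryos at days 13 to 14 of gestation, and the adapted lines were grown on from the same populations. CIZ1 null means a gene trap downstream of the first exon of both Ciz1 alleles, without the CIZ1 protein in the whole animal. Each adapted line is a single line of 1 embryo, here named E13.1, E13.8 and E14.4 (WT) and E13.15, E13.17 and E14.2 (CIZ1 null). E13.17 carries the transgene. Its untreated primary sample was counted with the 2 other primary CIZ1 null samples, which gives 3 for each of the 4 main groups. The embryos of the other untreated sample, S13, and of each treated sample, S14 and S15, were not identified here.

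Values are FPKM, read fragments scaled for the length of the transcript and the size of the library, which allows levels to be compared between genes. Ciz1 stood at 18.7 to 25.0 FPKM in the 6 WT samples, at 0.0546 to 0.724 in the untreated CIZ1 null samples and at 296 and 191 with doxycycline. Relative to primary WT E14.4, set to 1, the depth of the libraries lay between 0.483 (S13) and 1.63 (primary WT E13.1), and it was lower in adapted lines (0.542 to 1.19) than in most primary samples. The summed level of 6 fibroblast markers was 9173 to 10095 FPKM in the 6 primary samples and 2089.5 to 5890.3 FPKM in the 6 adapted lines. The sum of 6 macrophage markers was 4.52 to 45.6 FPKM in primary samples, where 5 of 6 reached 1 FPKM in some sample of each genotype. In adapted lines it was 1.81 to 4.37 FPKM, where 1 marker reached 1 FPKM. The sum of 4 skeletal muscle markers was 13.3 to 34.1 FPKM in primary samples and 0.0660 to 0.906 FPKM in adapted lines. In primary samples it came from Des. Myod1 was at 0 throughout, and Myog and Myh3 reached at most 0.0429 and 0.0287 FPKM. The 4 endothelial markers summed to at most 4.88 FPKM and the 4 epithelial markers to at most 17.8 FPKM, and the 4 neural markers reached 40.1 FPKM in 1 adapted WT line and at most 10.2 FPKM elsewhere among these 12 samples. The part of other cell types in the changes below was not tested. In bulk RNA, fewer cells of a type and less RNA per cell cannot be told apart.

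Phf19 and Usp16 were called in at least 1 comparison of adapted with primary cells, and the reference holds their promoters, so both are shown. The sequences are from RefSeq (GRCm38.p6), 250 bases before and 50 bases after the start site, 5′ to 3′ on the strand of the gene. The Phf19 promoter is chr2:34913927-34914226 on the minus strand, and that of Usp16 is chr16:87454735-87455034 on the plus strand. Capitals mark matches, on either strand, to the E2F motif (TTTCCCGC, TTTCGCGC, TTTGCCGC or TTTGGCGC) or to the E-box CACGTG, motifs that do not overlap each other here.
Phf19: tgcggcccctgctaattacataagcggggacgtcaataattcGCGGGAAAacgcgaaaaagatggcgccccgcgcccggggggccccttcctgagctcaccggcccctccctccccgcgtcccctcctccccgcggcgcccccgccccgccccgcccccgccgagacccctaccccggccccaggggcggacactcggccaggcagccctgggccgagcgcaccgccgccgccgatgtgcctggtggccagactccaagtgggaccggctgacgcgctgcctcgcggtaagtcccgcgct
Usp16: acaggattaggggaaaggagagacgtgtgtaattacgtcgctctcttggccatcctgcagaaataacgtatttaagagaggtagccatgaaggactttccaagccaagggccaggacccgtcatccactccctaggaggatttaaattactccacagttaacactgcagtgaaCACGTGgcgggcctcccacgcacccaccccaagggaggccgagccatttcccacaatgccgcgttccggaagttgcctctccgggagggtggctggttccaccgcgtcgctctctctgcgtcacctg

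The Phf19 window holds 1 E2F match, GCGGGAAA, which begins 208 bases before the start site, and 38 CpG dinucleotides. E2F factors drive genes of the S phase, and 2.26% of 32851 promoter windows of this length hold such a match. The Usp16 window holds 1 E-box, 77 bases before the start site, and 17 CpG. An E-box is held by 7.15% of the windows, and the median window has 7 CpG. Of the 9 member genes with 13 windows in the reference, Bap1 was the only other gene with a match (an E-box 143 bases before its start site), and the windows of Jarid2, Aebp2, Mtf2, Phf1, Asxl1 and Mysm1 held none.

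All 13 units were expressed in these fibroblasts. Aebp2 had the highest mean over the 15 samples (41.9 FPKM), ahead of Usp16 (30.6), the main unit of Bap1 (17.5), Asxl1 (8.53), Mtf2 (8.29), the main unit of Kdm6b (7.78) and Phf1 (7.04). In this order, which takes main units alone, Mysm1 (3.595), Jarid2 (3.17) and the main unit of Phf19 (2.22) were lowest. The second units of Bap1, Kdm6b and Phf19 had 4.38, 2.28 and 1.48 FPKM. With both units added, Phf19 and Kdm6b would stand higher in the order. Asxl1, Mtf2, Kdm6b and Phf1 are neighbours in this order whose ranges overlap (5.53 to 11.3, 4.33 to 13.002, 3.16 to 11.5 and 4.25 to 9.98 FPKM). The main unit of Bap1 stayed between 14.006 and 21.8 FPKM in every sample and its second unit between 2.86 and 6.32 FPKM. The main unit of Phf19 ran from 0.597 to 5.67 FPKM. In GRCm38, the build of the files, the units of Phf19 lie at chr2:34893751-34916014, those of Kdm6b at chr11:69398290-69420339, that of Jarid2 at chr13:44729417-44921643 and that of Usp16 at chr16:87454703-87495905, each spanning a whole protein-coding gene. The Usp16 unit extends beyond its gene, whose last base is 87483517. For 8 of the 10 genes another unit shares the locus, which for Bap1 is its own second unit. The units of Usp16, Mtf2 and Phf1 run past the end of their genes and share loci with Cct8, Tmed5 and Cuta. The library kit does not mark strand, so reads of such an overlap cannot be assigned to either gene.

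**Figure D1:**
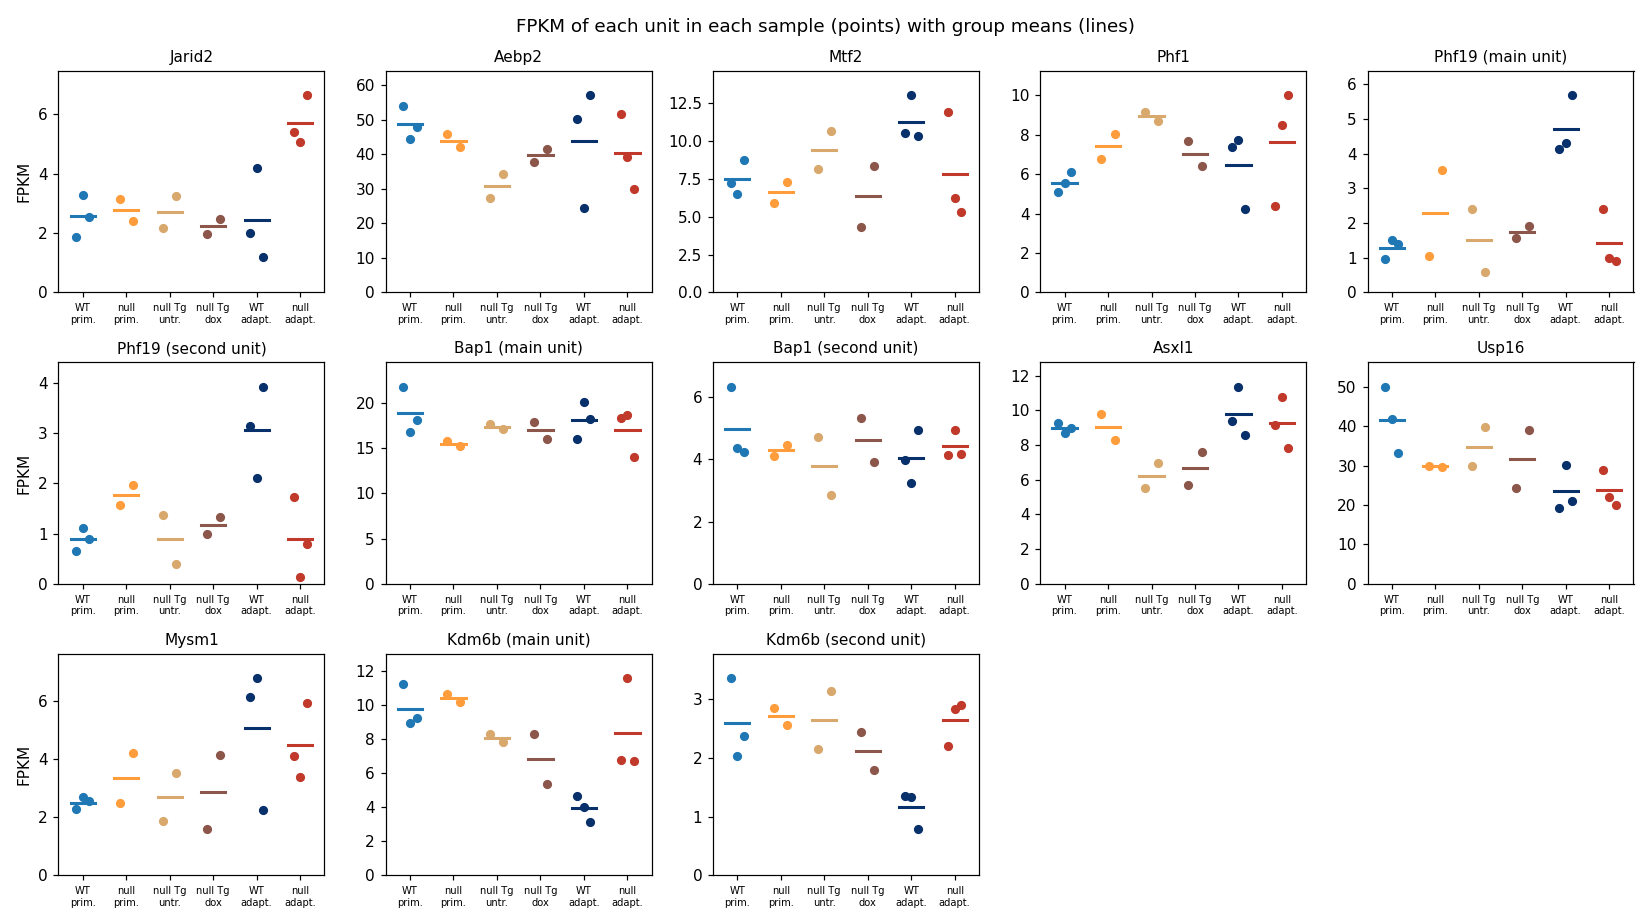
FPKM of the 13 units of the 10 genes. Each point is a sample, lines are group means, the vertical axis is FPKM from 0, and the groups are WT primary, CIZ1 null primary, untreated and doxycycline-treated transgenic CIZ1 null primary, WT adapted and CIZ1 null adapted. The 3 WT adapted samples lie at 4.13 to 5.67 FPKM for the main unit of Phf19 and at 3.16 to 4.64 FPKM for the main unit of Kdm6b.

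The first question was how the genes change when WT cells adapt to culture. Phf19, a Polycomb-like subunit, rose and Kdm6b, the inducible H3K27 demethylase, fell, while the other members did not pass the test. The main unit of Phf19 was at 1.504, 1.40 and 0.968 FPKM in primary E13.1, E13.8 and E14.4 and at 4.13, 4.30 and 5.67 FPKM in the adapted lines of the same embryos. The mean rose from 1.29 ± 0.284 to 4.70 ± 0.846 FPKM (SD, n = 3 each), 3.64-fold. On the log2(FPKM + 1) scale, which understates changes of low genes, the change was 1.31 ± 0.206 (SE), with an adjusted p of 0.0204 (limma, Benjamini-Hochberg over 19919 units). The second unit rose likewise, by 1.08 ± 0.246 with an adjusted p of 0.0446, from 0.660 to 1.12 FPKM in primary samples to 2.11 to 3.92 FPKM in adapted lines.

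The main unit of Kdm6b was at 8.90, 9.20 and 11.2 FPKM in primary E13.1, E13.8 and E14.4. In the adapted lines of these embryos it was at 4.64, 4.03 and 3.16 FPKM. The mean went from 9.77 ± 1.26 to 3.94 ± 0.746 FPKM, which is 2.48-fold lower. The change on the log2 scale was -1.13 ± 0.192 (adjusted p = 0.0243, limma). For the second unit it was -0.73 ± 0.237, which did not pass over all units (adjusted p = 0.0990). Kdm6bos, a transcript at the same locus, was at 2.61 to 4.38 FPKM in primary and at 0.929 to 1.72 FPKM in adapted WT samples, and because the library kit does not mark strand, reads of the overlap cannot be assigned to either.

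These 3 called units stand against 9.55% of all units called in this comparison, so that a few called units among 13 are near the background. With the embryo as a block, no member was called, and the adjusted p was 0.0622 for the main unit of Phf19 and 0.0683 for that of Kdm6b (limma). The calls of both main units were also lost when any single primary WT sample was left out (adjusted p of 0.0835 to 0.0995 for Phf19 and 0.0922 to 0.114 for Kdm6b), while the changes themselves stayed between 1.19 and 1.39 and between -1.23 and -1.01 over all samples left out.

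A further 3 units had an unadjusted p under 0.05, which 30.6% of all units reached. Usp16, which acts on H2A in mitosis, was at 41.8, 33.1 and 49.9 FPKM in primary E13.1, E13.8 and E14.4 and at 19.2, 30.2 and 20.9 FPKM after adaptation (log2 change -0.81 ± 0.243, adjusted p = 0.0824, limma). The difference was small in E13.8 and more than 1 log2 unit in both other embryos. Mtf2, a Polycomb-like subunit, was at 6.52, 8.73 and 7.21 FPKM in primary and at 10.5, 13.002 and 10.3 FPKM in adapted cells of the same embryos (0.53 ± 0.184, adjusted p = 0.110). The second unit of Kdm6b was the remaining one of the 3. Mysm1 was at 6.13 and 6.77 FPKM in adapted E13.1 and E13.8 but at 2.26 FPKM in adapted E14.4, just under its primary range of 2.28 to 2.68 FPKM. Its change was 0.69 ± 0.351 (adjusted p = 0.235), and without adapted E14.4 it was 1.09 with an adjusted p of 0.0225, the only sample whose absence gave a call, against up to 0.441 without another sample.

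In CIZ1 null cells no member passed the test on adaptation (limma), where 4.86% of 20044 units did. Jarid2, a subunit of the H2A-binding form of PRC2, came nearest. It was at 2.39, 2.17 and 3.14 FPKM in primary E13.15, E13.17 and E14.2, against 5.40, 5.06 and 6.64 FPKM in the adapted lines of these embryos. The mean was 2.57 ± 0.508 in primary and 5.70 ± 0.832 FPKM in adapted cells (2.22-fold). The log2 change was 0.91 ± 0.198, with an unadjusted p of 0.00292 and an adjusted p of 0.0527 (limma), and it was the only member with an unadjusted p under 0.05, which 29.3% of all units reached. Embryo by embryo the change was 0.92, 0.94 and 0.89. With 1 sample left out the adjusted p ran from 0.0486 (without adapted E13.15) to 0.204 (without primary E13.15), and over the other settings from 0.0434 (array weights) to 0.161 (without the transgenic primary sample, E13.17). In WT cells Jarid2 did not move one way, with changes of -0.52, 0.54 and -0.40 in E13.1, E13.8 and E14.4.

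**Figure D2:**
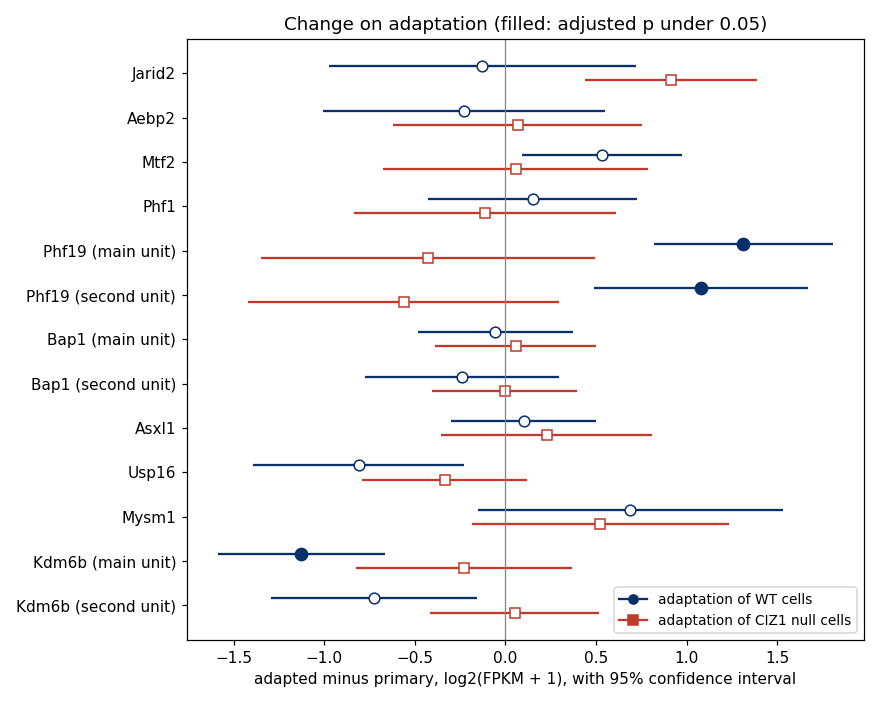
Change of each unit from primary to adapted cells, on the log2(FPKM + 1) scale, with 95% confidence intervals from limma (n = 3 against 3 in each genotype). Circles are WT and squares CIZ1 null cells, and filled symbols have an adjusted p under 0.05, which holds for both units of Phf19 and the main unit of Kdm6b in WT cells.

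For Phf19, the main unit was at 3.54, 2.40 and 1.05 FPKM in primary CIZ1 null E13.15, E13.17 and E14.2, against 2.41, 0.983 and 0.916 FPKM after adaptation. The change was -0.43 ± 0.384 (adjusted p = 0.486), with a fall in each of the 3 embryos. That of Kdm6b was at 10.1, 8.29 and 10.7 FPKM before and at 6.74, 11.5 and 6.70 FPKM after adaptation (-0.23 ± 0.248, adjusted p = 0.563), so that E13.17 moved up and both other embryos moved down. Usp16 was at 29.6, 29.9 and 30.0 FPKM in the primary cells and at 29.0, 22.1 and 20.0 FPKM in the adapted lines (-0.34 ± 0.191, adjusted p = 0.286). Mtf2 was at 11.9 FPKM in adapted E13.15 and at 6.26 and 5.28 FPKM in adapted E13.17 and E14.2, around the primary range of 5.90 to 8.14 FPKM. Tmed5, which shares the locus of Mtf2, was at 29.0, 15.3 and 14.3 FPKM in these adapted lines. In the primary cells it was at 14.3 to 24.8 FPKM. Aebp2, Phf1, Asxl1 and both units of Bap1 had changes between -0.24 and 0.23 in both genotypes.

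**Figure D3:**
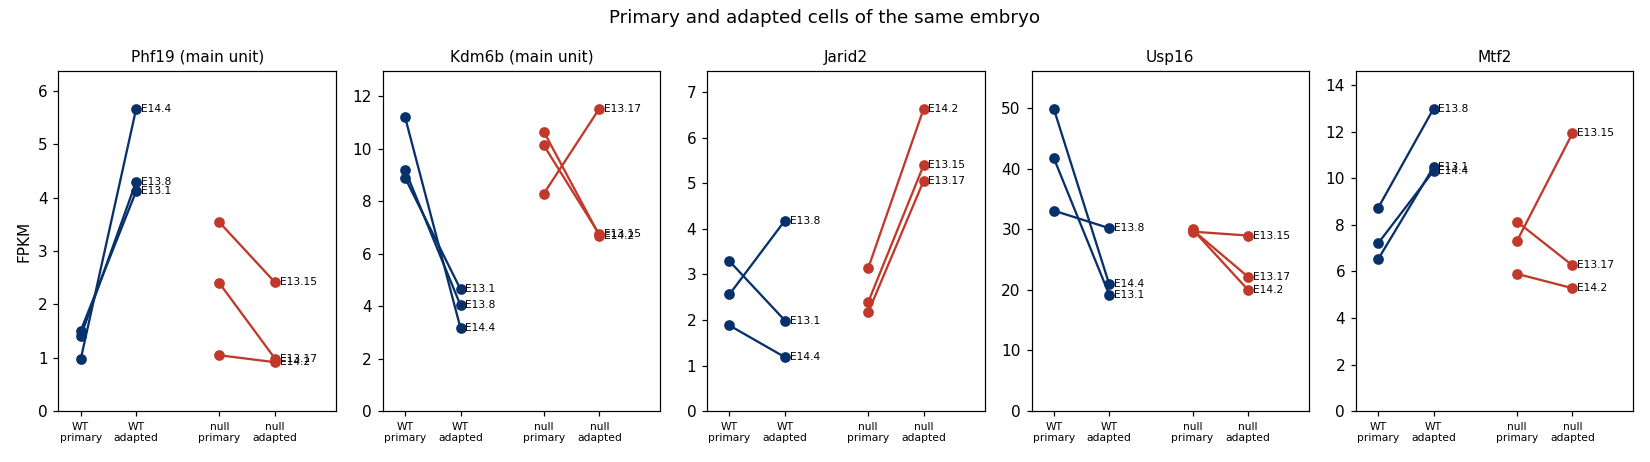
FPKM of 5 units in primary and adapted cells of the same embryo. Each line joins the primary and the adapted sample of 1 embryo (WT in blue, CIZ1 null in red), and the vertical axes are FPKM from 0. Phf19 goes up in the 3 WT embryos and down in the 3 CIZ1 null embryos, and Jarid2 goes up in the 3 CIZ1 null embryos.

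Whether adaptation differs between the genotypes was asked with an interaction term in a fit of 12 samples. No unit of any gene passed (0% of 20046 units called, 4.63% with an unadjusted p under 0.05). Among the members, the unadjusted p was under 0.05 for both units of Phf19, both units of Kdm6b and Jarid2. For the main unit of Phf19 the difference (CIZ1 null change minus WT change) was -1.74 ± 0.445, with a 95% interval of -2.72 to -0.76, an unadjusted p of 0.00256 and an adjusted p of 0.996 (limma). For Kdm6b it was 0.90 ± 0.312 (unadjusted p = 0.0152) and for Jarid2 1.04 ± 0.416 (unadjusted p = 0.0300), all with an adjusted p of 0.996 in limma. The second unit of Phf19 (-1.64 ± 0.436) reached an adjusted p of 0.0436 (limma) when adapted CIZ1 null E13.15 was left out. In that setting 234 of all units were called, in place of 0, and all other members stayed uncalled.

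The adapted lines were also compared with each other across genotypes. No member passed (limma), and 0.00501% of 19976 units did, that is 1 unit. Phf19 (main unit) was at 4.13 to 5.67 FPKM in WT and at 0.916 to 2.41 FPKM in CIZ1 null adapted lines (log2 change -1.27 ± 0.309, unadjusted p = 0.00514, adjusted p = 0.998). That of Kdm6b was at 3.16 to 4.64 against 6.70 to 11.5 FPKM (0.89 ± 0.280, unadjusted p = 0.0170). Jarid2 was at 1.18 to 4.18 FPKM in WT and 5.06 to 6.64 FPKM in CIZ1 null lines (1.04 ± 0.354, unadjusted p = 0.0229). With both second units of Phf19 and Kdm6b, 5 of 13 member units had an unadjusted p under 0.05, beside 4.02% of all units. They belong to Phf19, Kdm6b and Jarid2 alone, and units of the same gene may divide its reads and are not independent. These comparisons share their adapted samples with the adaptation and interaction tests above and are not independent of them.

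Markers of cell division differed between the adapted lines as well. Mki67, a marker of dividing cells, was at 63.4, 43.0 and 19.2 FPKM in adapted WT E13.1, E13.8 and E14.4. In the adapted CIZ1 null lines it was at 39.5 FPKM in E13.15 but at 0.662 FPKM in E13.17 and 3.55 FPKM in E14.2. These are the 2 adapted lines in which the main unit of Phf19 was under 1 FPKM. The sum of 14 proliferation genes was 915 to 1033 FPKM in adapted WT lines and 178 to 1000 FPKM in adapted CIZ1 null lines. In WT cells 3 of 20 proliferation units rose (Cdk1, Ccnb1 and Pcna) and none fell, beside 9.55% of all units called. In CIZ1 null cells none passed, beside 4.86% of all units. The median log2 change of the proliferation units was 0.59 in WT and -0.91 in CIZ1 null cells, beside -0.05 and -0.04 over all units. Ezh2, a catalytic subunit of PRC2, was low in the same lines, at 24.0, 26.9 and 23.9 FPKM in adapted WT lines and at 23.8, 5.92 and 6.62 FPKM in adapted CIZ1 null E13.15, E13.17 and E14.2. The part of cell division in the values of Phf19 was not tested.

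**Figure D4:**
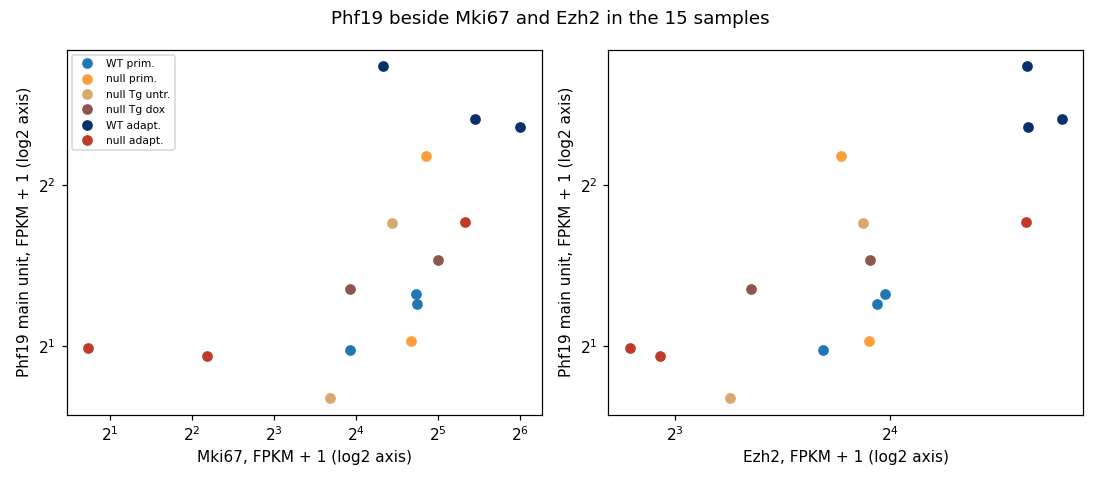
The main unit of Phf19 against Mki67 (left) and Ezh2 (right) in the 15 samples, as FPKM + 1 on log2 axes, coloured by group. Adapted CIZ1 null E13.17 and E14.2 have the lowest Mki67 (0.662 and 3.55 FPKM) and Ezh2 (5.92 and 6.62 FPKM), and the 3 adapted WT lines have the highest Phf19 (4.13 to 5.67 FPKM).

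Over the 15 samples, which share embryos, depth and culture state, the units most like the main unit of Phf19 were its second unit (Pearson r = 0.898) and Ccdc34, Tmpo, Recql4 and Gen1 (0.894 to 0.873). Among those most like the second unit were Dtl, Brca1, Atad2 and Mb21d1 (0.930 to 0.916). Kdm6b (main unit) was most like Ubald1, 2 units of S100a16, Tbc1d10a and Kdm6bos (0.911 to 0.898). Usp16 was most like Gnl2, Med8, 4931406P16Rik, Pvrl3 and the unit of Gmppb (0.900 to 0.869). Among the members, apart from pairs of units of 1 gene, the highest r was 0.54 (Mtf2 and the main unit of Phf19) and the lowest -0.87 (the main unit of Phf19 and the second unit of Kdm6b), with -0.72 for both main units and -0.78 for Aebp2 with Phf1. These values are descriptions without a test.

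Over both genotypes together, with genotype in the fit, 33.3% of 20046 units were called on adaptation, and 2 of 13 member units were, both lower in adapted cells. Usp16 fell by 0.57 on the log2 scale (SE 0.163, adjusted p = 0.0192, limma), from 35.7 ± 8.36 to 23.6 ± 4.77 FPKM (SD, n = 6 each). It was lower in the adapted cells of 6 of 6 embryos, but its log2 change was only -0.03 in E13.15 and -0.13 in E13.8. Kdm6b (main unit) fell by 0.68 (SE 0.199, adjusted p = 0.0215), from 9.73 ± 1.12 to 6.13 ± 3.01 FPKM, lower in 5 of 6 embryos. With the embryo as a block the adjusted p was 0.0516 for Usp16 and 0.0624 for Kdm6b, and quantile normalization gave 0.0612 for Usp16. Without primary WT E14.4 it was 0.0509 for Kdm6b. Mysm1, a deubiquitinase of H2A, had 2.68 ± 0.800 FPKM in primary and 4.76 ± 1.78 FPKM in adapted cells (0.61 ± 0.231, adjusted p = 0.0619), which did not pass. With 1 sample left out its adjusted p ran from 0.0123 (without adapted WT E14.4) to 0.125 (without adapted WT E13.8), passing in 2 of 12 cases, the other being without primary CIZ1 null E13.15 (0.0398), and over the other settings from 0.0511 to 0.124. An unadjusted p under 0.05 was found for these 3 units and for 44.1% of all units. Cct8, which shares the locus of Usp16, was at 195 to 246 FPKM in the 6 primary and 116 to 204 FPKM in the 6 adapted samples, and reads of the overlap cannot be told apart without strand.

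Loss of CIZ1 in primary cells called no member (limma), beside 0.00511% of 19566 units called and 6.26% with an unadjusted p under 0.05. Phf1 was at 5.07 to 6.08 FPKM in WT and 6.74 to 9.16 FPKM in CIZ1 null primary cells (0.45 ± 0.151, unadjusted p = 0.0208, adjusted p = 0.743). Cuta, which shares the locus of Phf1, was at 39.7 to 52.5 FPKM in these WT samples and at 34.9 to 66.6 FPKM in the CIZ1 null samples. Usp16 was at 33.1 to 49.9 against 29.6 to 30.0 FPKM (-0.45 ± 0.161, unadjusted p = 0.0277, adjusted p = 0.776). The second unit of Phf19 was at 0.660 to 1.12 against 1.37 to 1.96 FPKM (0.48 ± 0.190, unadjusted p = 0.0415). Kdm6b (main unit), by contrast, had nearly the same mean in both (9.77 ± 1.26 and 9.69 ± 1.24 FPKM), with a 95% interval of the log2 difference of -0.37 to 0.35. Over both culture states the loss of CIZ1 called 0.00499% of 20046 units (4.74% unadjusted) and no member, and Kdm6b had an unadjusted p of 0.0482 (0.44 ± 0.199).

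Induction of GFP-CIZ1 brought Ciz1 from 0.171 and 0.514 FPKM to 296 and 191 FPKM, and no member was called (limma), against 0.0101% of 19768 units. The induced cells came from 2 embryos, E13.17 being one, so treated and untreated samples share embryos. Which treated sample belongs with which untreated one is not in the labels, and the samples were compared without pairing. No member had an unadjusted p under 0.05 either, which 1.76% of all units had. With 2 samples a group the intervals are wide. Jarid2 was at 2.17 and 3.27 FPKM without and at 1.99 and 2.48 FPKM with doxycycline (95% interval of the log2 difference -1.02 to 0.64). For Phf19 the main unit was at 2.40 and 0.597 FPKM without and at 1.56 and 1.90 FPKM with doxycycline (-0.90 to 1.35). For Kdm6b it was 8.29 and 7.83 against 8.29 and 5.37 FPKM (-1.04 to 0.57).

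The make-up of pools of related genes was compared as shares of summed FPKM, with culture labels permuted within genotypes. Kdm6b held 75.5 to 81.5% of the FPKM of the H3K27 demethylases Kdm6a and Kdm6b in the 6 primary samples of the main groups. In the other primary CIZ1 null samples Kdm6b held 67.2% (untreated S13), 76.2% (doxycycline S14) and 59.4% (doxycycline S15). In the adapted lines it held 34.2 to 44.9% in WT and 54.9 to 57.7% in CIZ1 null cells, below every primary sample. The difference was -31.2 percentage points over both genotypes, with an exact permutation p of 0.005, the smallest that the 400 arrangements allow, and 0.03 after adjustment over 6 shares. That test leaves the embryo out. With culture labels permuted within the 6 embryos, a test added after seeing the data, the exact permutation p was 0.03125, the smallest that 64 arrangements allow, and 0.1875 after adjustment, which does not pass. Within a genotype it was -40.2 points in WT and -22.2 points in CIZ1 null cells, where 3 against 3 samples cannot give a p under 0.1 (exact permutation p = 0.1 in each). Kdm6a, an X-linked demethylase, was at 3.30 to 3.55 FPKM in WT primary and 4.85 to 11.1 FPKM in WT adapted cells, and its change was 1.10 ± 0.204 in CIZ1 null cells (adjusted p = 0.0395, limma) and 1.08 ± 0.302 in WT cells (adjusted p = 0.0696).

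**Figure D5:**
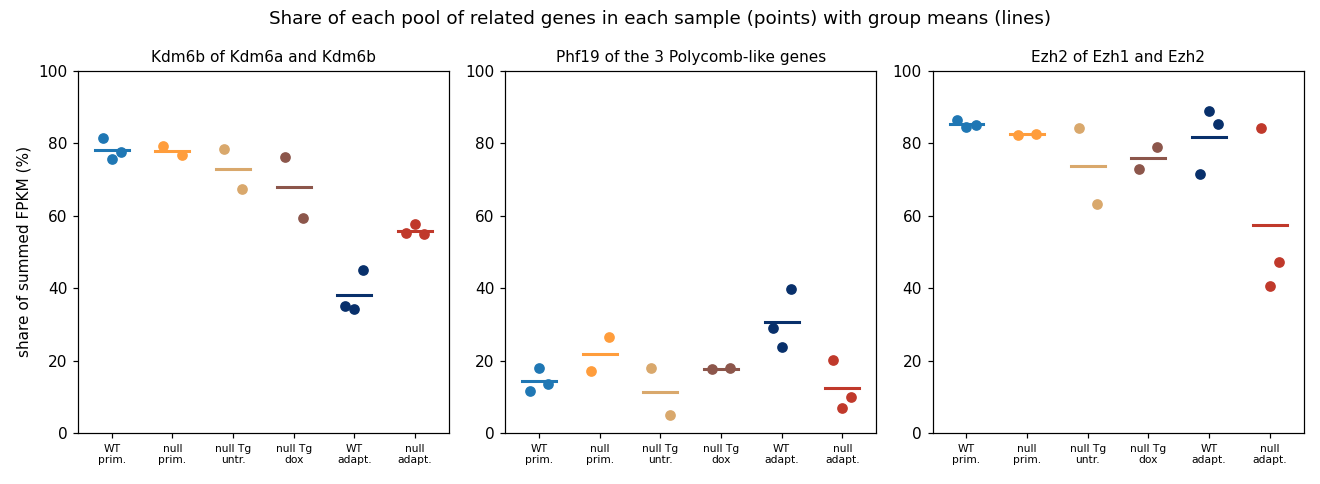
Share of summed FPKM held by Kdm6b among Kdm6a and Kdm6b (left), by Phf19 among Mtf2, Phf1 and Phf19 (middle) and by Ezh2 among Ezh1 and Ezh2 (right), in percent. Points are samples and lines group means. The share of Kdm6b is 75.5 to 81.5% in the primary WT and the 3 primary CIZ1 null samples used and 34.2 to 57.7% in the 6 adapted lines. In S13, S14 and S15 it is 67.2, 76.2 and 59.4%.

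The other 5 shares did not pass (exact permutation test over both genotypes, adjusted p of 0.57 to 0.97). Phf19 held 11.7 to 17.9% of the FPKM of the 3 Polycomb-like genes in WT primary and 23.6 to 39.7% in WT adapted cells, and 17.1 to 26.4% and 7.05 to 20.3% in CIZ1 null cells. In S13, S14 and S15, outside these groups, it held 4.93, 17.6 and 18.0%. The mean share of Phf1 in WT cells was 36.5 ± 1.06% before and 25.1 ± 6.55% after adaptation, while in adapted CIZ1 null lines it ran from 21.5 to 58.8%. Jarid2 and Aebp2, the subunits of the H2A-binding form, held 77.1 ± 2.72% of the FPKM of the 5 accessory subunits in WT primary and 63.2 ± 10.3% in WT adapted cells. Ezh2 held 82.4 to 86.3% of Ezh1 and Ezh2 in the primary samples of the main groups and 63.3, 72.8 and 79.1% in S13, S14 and S15. In adapted lines it held 40.5 to 89.0%, with the low values in adapted CIZ1 null E13.17 and E14.2.

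The partners of these genes are given for comparison. Their counts are to be read beside the 9.55% of all units called in WT cells, 4.86% in CIZ1 null cells and 33.3% over both genotypes. Of 6 core PRC2 units tested, Ezh2 rose in WT cells (0.82 ± 0.165, adjusted p = 0.0342, limma) and none was called in CIZ1 null cells (-0.41 ± 0.490 for Ezh2). Over both genotypes Suz12 (0.53 ± 0.143) and Ezh1 (0.96 ± 0.218) rose and Eed (-0.63 ± 0.212) fell, with adjusted p of 0.0149, 0.00657 and 0.0385. Of 4 units of further PRC2 accessory genes, 1 of E130012A19Rik fell in CIZ1 null cells (-1.32 ± 0.261, adjusted p = 0.0459), none passed in WT cells, and over both genotypes 2 units of that gene fell and Lcorl rose. Among canonical PRC1 genes, 2 of 16 units rose and 2 fell in WT cells, beside 9.55% of all units called, and 4 of 17 rose (Rnf2, Phc3 and 2 of Bmi1) and 2 fell (Phc2) in CIZ1 null cells, beside 4.86%. Bmi1, a PRC1 subunit, rose in both (main unit 0.86 ± 0.206 and 1.10 ± 0.174, adjusted p of 0.0498 and 0.0303) and Phc2 fell in both (-1.90 ± 0.360 and -1.94 ± 0.256, adjusted p of 0.0305 and 0.0235).

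Of 12 units of BAP1 partners, Kdm1b and 1 unit of Ogt rose and Foxk2 fell in WT cells, beside 9.55% of all units called, and 3 units of Ogt rose in CIZ1 null cells, beside 4.86%. Ogt encodes the O-GlcNAc transferase and had log2 changes of 1.53 ± 0.299 in WT and 1.92 ± 0.271 in CIZ1 null cells for the unit called in both (adjusted p of 0.0322 and 0.0261, limma). Bap1 itself had changes of -0.06 ± 0.178 and 0.06 ± 0.185 for its main unit, and Asxl1 of 0.10 ± 0.168 and 0.23 ± 0.244. Asxl2, the paralogue of Asxl1, was at 2.91 FPKM in primary and 5.66 FPKM in adapted CIZ1 null cells (0.78 ± 0.209, adjusted p = 0.0751), and rose over both genotypes (0.52 ± 0.173, adjusted p = 0.0379). No unit of 15 of the further H2A deubiquitinases passed within a genotype, and over both genotypes 4 of 15 were called (Usp21, Usp46, Usp11 and Brcc3, all higher), a smaller share than the 33.3% of all units.

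Kdm6b is known as a target of NF-kB in macrophages, and NF-kB targets and immediate early genes are given beside it. Of 16 units of immediate early genes, 6 fell in WT cells (Egr2 in 2 units, Fos, Jun and Ier2 in 2 units), with a median log2 change of -1.03, where 9.55% of all units were called and 1330 of 19919 were lower. In CIZ1 null cells 1 of 14 fell (Jun), beside 4.86% of all units called, and the median was -0.95. Of the NF-kB targets none of 12 units passed in WT cells (median 1.07), and Nfkbia and Cxcl1 rose in CIZ1 null cells (2 of 11 units, median 0.92), where 280 of 20044 units were higher. Nfkbia was at 12.4 to 19.9 FPKM in WT primary and at 20.1 to 75.3 FPKM in WT adapted cells, where Kdm6b was lower. The part of these genes in the level of Kdm6b was not tested.

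Variation between lines differed from gene to gene. The median SD over units on the log2 scale was 0.185 in WT primary and 0.216 in the 3 primary CIZ1 null samples, and 0.360 and 0.357 in the adapted groups. Aebp2 was at 50.3, 24.6 and 57.1 FPKM in adapted WT E13.1, E13.8 and E14.4, and at 51.7, 39.1 and 30.0 FPKM in adapted CIZ1 null E13.15, E13.17 and E14.2. In each genotype 2 of 3 embryos moved up and 1 moved down, and the change was -0.23 ± 0.324 and 0.07 ± 0.287. Phf1 went up in 2 of 3 WT embryos and in 1 of 3 CIZ1 null embryos, with 95% intervals of -0.43 to 0.73 and -0.83 to 0.61.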

How the data were processed

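Poly(A)-selected RNA of 15 mouse fibroblast samples was sequenced with a NEBNext Ultra kit that does not mark strand. Per the labels and the submitters' processing notes, the authors trimmed reads with cutadapt 1.8.3, aligned them to GRCm38 with HISAT2 2.0.5, assembled and merged transcripts with Cufflinks, and deposited FPKM per transcription unit from Cuffnorm. A second deposited table holds the authors' own comparisons from Cuffdiff 2.2.1 (group means, fold changes, p and q values) and was not used. Every column of FPKM was mapped to a sample, and the labelled source name of sample S06 reads S13, a sample of the same group.

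Groups came from the labels. The embryo of 12 samples was identified by values that are 100% identical to those listed per line in the study's supplement. A unit was tested where its FPKM averaged 1 or more in the fitted samples, and groups were compared on log2(FPKM + 1) with limma 3.58.1 in R 4.3.3 (lmFit, eBayes with trend), with p adjusted over all units by the Benjamini-Hochberg method and a threshold of 0.05. Shares were compared with exact 2-sided permutation tests, with p adjusted over the 6 shares, in Python 3.11.15 with NumPy 2.4.6 and pandas 2.3.3, and figures drawn with Matplotlib 3.10.9. The fits were tested on simulated data first. P-values measure the spread between these samples, and samples of the same embryo are not independent.

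Samples of the same embryo form pairs, as the study derived each adapted line from a primary population. Within pairs, deviations from the group means correlated with r of 0.146, -0.0098 and 0.210 (E13.1, E13.8, E14.4) and 0.110, 0.0893 and -0.0193 (E13.15, E13.17, E14.2). Depth is not given with FPKM, and relative depth was taken from the smallest steps of 6880 units under 0.3 FPKM.

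The genes to be named were all 10 members and, of the related lists, the genes called in the comparison described, with Ezh2, Ezh1, Asxl2, Kdm6a and Ciz1 in any case. Mki67, Nfkbia, Cct8, Kdm6bos, Tmed5 and Cuta were added after their values were seen. The members and lists were chosen with earlier results of these data known. The alternatives were a pseudocount of 0.1, quantile normalization, no filter on FPKM, a minimum mean of 5 FPKM, array weights, a single fit of 4 groups, other sets of primary CIZ1 null samples, the embryo as a block, each sample left out and, added after seeing the data, units at the same coordinates summed and, for shares, labels permuted within embryos.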

Additional observations from a re-analysis of the deposited data

Results flagged for a closer look

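Phf19 is the member that went up on adaptation in all 3 WT embryos and down in all 3 CIZ1 null embryos. By embryo the log2 change of the main unit was 1.03, 1.14 and 1.76 in E13.1, E13.8 and E14.4, and -0.41, -0.78 and -0.10 in E13.15, E13.17 and E14.2. The interaction was -1.74 ± 0.445 (unadjusted p = 0.00256, adjusted p = 0.996, limma) and, for the second unit at the same coordinates, -1.64 ± 0.436 (unadjusted p = 0.00327, adjusted p = 0.996). The units may divide the reads of 1 gene and are not independent. The difference fails the correction over all units.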

How the results depend on the processing

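The number of member units called on adaptation of WT cells was 3 and became 1 with a mean FPKM of at least 5, which leaves both units of Phf19 untested, 5 with all 4 groups in a single fit, where Usp16 and the second unit of Kdm6b are added, and 0 with the embryo as a replicate block. Leaving out 1 replicate gave 0 to 3. In CIZ1 null cells the number was 0, 1 with array weights and 0 to 1 without a replicate. For the difference between genotypes it was 0, and 0 to 1 without a replicate, where 0 to 234 of all units were called. Over both genotypes it was 2, 1 with quantile normalization, 0 with the embryo as a replicate block and 1 to 3 without a replicate. No member was called on loss of CIZ1 in primary or adapted cells, over both states, or on induction, under any alternative run. Units called on adaptation of WT cells numbered 1902, 62 without primary WT E14.4, 2972 without adapted WT E14.4 and 499 with the embryo as a replicate block. In CIZ1 null cells they numbered 975, 25 without primary E14.2, 2999 without adapted E13.15 and 10 with the block. Under quantile normalization the median log2 change over all units was 0.058 in place of -0.0489 in WT and 0.0579 in place of -0.0377 in CIZ1 null cells, and 982 units were called higher and 1081 lower in WT cells, in place of 572 and 1330, 351 and 501 in CIZ1 null cells, in place of 280 and 695, and 3749 and 2957 over both genotypes, in place of 2834 and 3832. The share of Mtf2 differed by 0.25 points, by -1.05 points with all 4 untreated primary CIZ1 null samples and by -2.70 to 2.74 points without a replicate, and that of Ezh2 by -18.5 to -8.76 points without a replicate, with an exact permutation p of 0.045 (-17.5 points, adjusted p = 0.135) without adapted CIZ1 null E13.15. With the embryo as a replicate block, added after seeing the data, the share of Kdm6b differed by -31.2 points with an adjusted p of 0.1875, in place of 0.03, and no other share changed its call. The cause of these differences was not tested. FPKM give no counts, so no counting error is stated.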
